A study of Mus musculus with 4 samples.

Results

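Expression of 45 genes of the interferon pathway, from its receptors and signaling proteins to interferon-stimulated genes and Gbp GTPases, was compared between *lal−/−* and *lal+/+* myeloid cells. The genes came from a list. One of them counted as measured where a probe set named it and no other gene, with the brightest such probe set standing for it, and 39 of the 45 were measured, of 19920 genes in all. Interferons are secreted proteins that put cells into an antiviral and antimicrobial state. Type I interferons bind a receptor made of IFNAR1 and IFNAR2, gamma interferon binds IFNGR1 and IFNGR2, and both receptors signal through Janus kinases to STAT and IRF transcription factors. These factors bind the interferon-stimulated response element (ISRE) and the gamma-activated site (GAS) in front of interferon-stimulated genes, among them the guanylate-binding proteins (GBPs), GTPases that coat intracellular pathogens and their vacuoles.

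RNA came from bone marrow cells of *lal−/−* mice, which lack lysosomal acid lipase (LAL), and of wild type *lal+/+* mice, selected in the same way. The sources call the cells of both genotypes myeloid-derived suppressor cells (MDSCs), a name kept here. All mice were 5 months old and back-crossed for 10 generations onto FVB/N. By the labels the cells were CD11b+ Gr-1+, by the methods they were selected on magnetic beads through Ly6G. For each genotype 2 Affymetrix Mouse Gene 1.0 ST arrays were run, and a pair of values below gives the first and the second array. Whether the arrays of a genotype held RNA of separate mice is not stated in the sources, so that the p-values take in only array-to-array spread, possibly of technical origin. *Lipa*, the gene for LAL, read 7.37 and 7.49 in *lal−/−* MDSCs, against 9.50 and 9.05 in *lal+/+* MDSCs (log2), a log2 fold change of -1.85 (SE 0.17, adjusted p = 4.17e-04 from limma).

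The cells of the 2 genotypes differed in more than *Lipa*. *Ly6g*, the antigen of the selection, read 12.91 and 12.84 in *lal−/−* MDSCs, against 10.19 and 9.80 in *lal+/+* MDSCs. All 5 measured neutrophil primary granule markers were higher in *lal−/−* MDSCs, with a median log2 fold change of 3.65, whereas 10 of 13 monocyte and macrophage markers and 8 of 9 B cell markers were lower, with medians of -1.98 and -3.29. The summed level of the monocyte and macrophage markers was 10.35 and 10.36 in *lal−/−* MDSCs, against 12.90 and 12.77 in *lal+/+* MDSCs (log2), and that of the B cell markers was 9.40 and 9.86, against 13.06 and 12.89. All 9 B cell markers lay above the background level of the arrays, defined below, in *lal+/+* MDSCs, and 4 of them and 5 of the monocyte and macrophage markers fell into it in *lal−/−* MDSCs only. Of the other lists, the plasmacytoid dendritic cell markers, from a main source of type I interferon, held 1 lower of 6, the T and NK cell markers 5 lower and 1 higher of 10, the erythroid markers none called of 6, and the later neutrophil markers 8 higher and 1 lower of 14. In bulk RNA, fewer cells of a type and less RNA per cell cannot be told apart.

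Calls required a fold change of at least 2 together with an adjusted p under 0.05 (limma, Benjamini-Hochberg over all probe sets naming 1 gene). Over all genes, 10.8% were called, 7.57% higher and 3.23% lower in *lal−/−* MDSCs. Of the 39 measured interferon pathway genes, 2 were called higher (*Ifit2* and *Dhx58*) and 2 were called lower (*Gbp8* and *Gbp3*), which is 10.3% and close to the share over all genes. An ordinary linear model, with 2 residual degrees of freedom, called none of the 39 and no other gene. Their median log2 fold change was 0.12, beside 0.08 over all genes, and 24 of them had a positive and 15 a negative value. At an adjusted p under 0.05 with no fold threshold, 29.6% of all genes passed (19.8% higher and 9.84% lower), and 14 of the 39 did (35.9%), 7 in each direction. The *lal−/−* and *lal+/+* arrays did not overlap for 29 of the 39 (74.4%, 18 with *lal−/−* above and 11 with *lal−/−* below), beside 65.7% of all genes (41.6% above and 24.1% below).

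**Figure D1:**
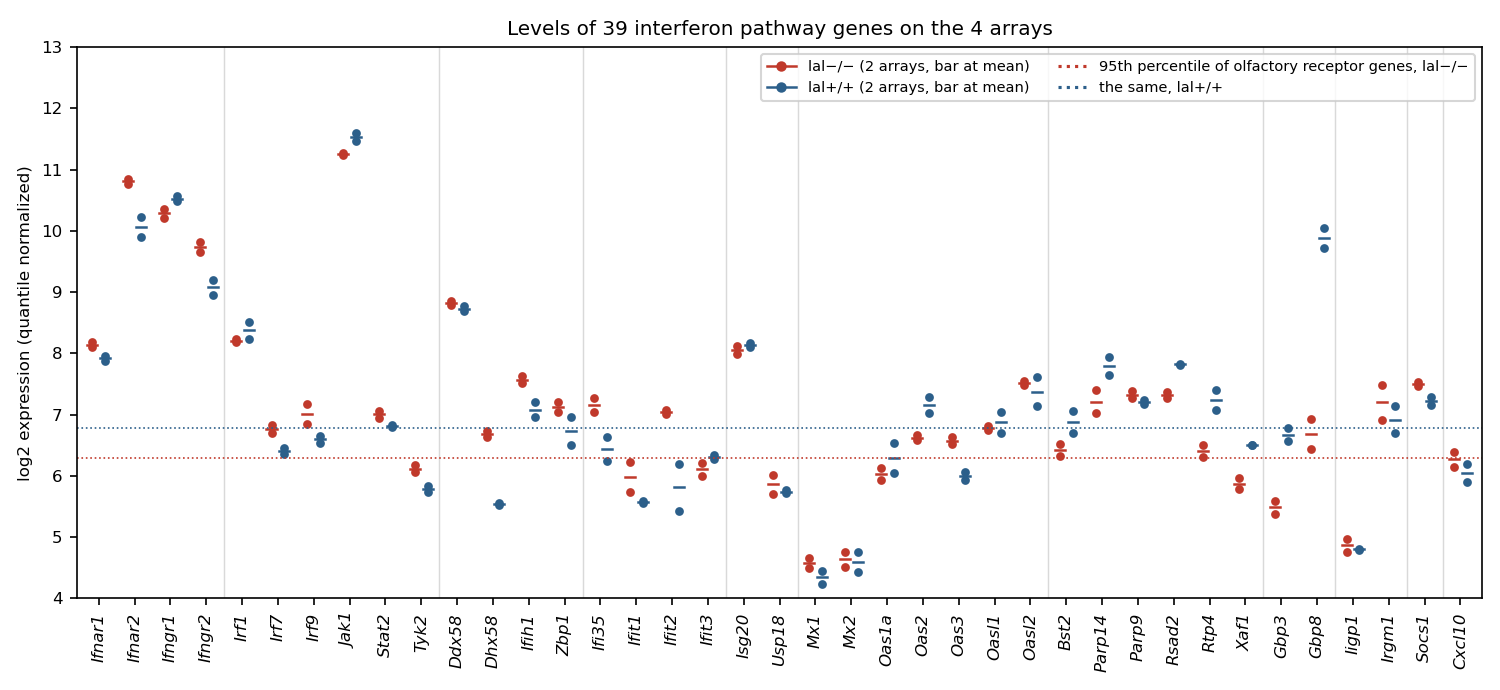
Log2 expression (quantile normalized) of the 39 measured interferon pathway genes on each array, in order of their roles, with *lal−/−* arrays in red left of *lal+/+* arrays in blue and a short bar at each mean. The dotted lines mark the 95th percentile of olfactory receptor genes in each genotype, at 6.29 in *lal−/−* and 6.79 in *lal+/+* MDSCs, and *Gbp8* shows the widest gap between the genotypes.

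Some of these genes read near the level of genes that myeloid cells do not use. Olfactory receptor genes (1027 measured) served as that level, and their 95th percentile was 6.29 in *lal−/−* and 6.79 in *lal+/+* MDSCs. Over all 19920 genes, the mean of 9192 lay below it in both genotypes, 3457 in *lal+/+* MDSCs only, and 7043 lay above it in both. The mean of 11 of the 39 genes lay below it in both genotypes, 7 lay below it in *lal+/+* MDSCs only, and 21 lay above it in both. The 11 were *Mx1*, *Mx2*, *Ifit1*, *Ifit3*, *Usp18*, *Oas1a*, *Cxcl10*, *Iigp1*, *Tyk2*, *Xaf1* and *Gbp3*. For such genes the array gives little more than background. Of the 4 called genes, *Gbp8* read above the percentile in both genotypes, *Ifit2* and *Dhx58* lay below it in *lal+/+* MDSCs, and *Gbp3* lay below it in both. Where a called gene lay below it in 1 genotype, the fold is given as a lower bound against the percentile, and where it lay below in both, no fold is given.

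None of the 4 receptor genes was called. With no fold threshold, 2 of them passed the adjusted p with higher values in *lal−/−* MDSCs, beside 19.8% of all genes. In the values that follow, pairs are log2 levels. *Ifnar2*, the high-affinity chain of the type I receptor, read 10.77 and 10.85 in *lal−/−* MDSCs, against 10.22 and 9.90 in *lal+/+* MDSCs. *Ifngr2*, the signaling chain of the gamma interferon receptor, read 9.81 and 9.66 in *lal−/−* MDSCs, against 9.20 and 8.95 in *lal+/+* MDSCs. Both *lal−/−* arrays lay above both *lal+/+* arrays for each gene, with log2 fold changes of 0.75 (SE 0.15, adjusted p = 0.009) and 0.66 (SE 0.14, adjusted p = 0.013), short of the 2-fold needed for a call. *Ifnar1* read 8.18 and 8.11 in *lal−/−* MDSCs, against 7.96 and 7.88 in *lal+/+* MDSCs (log2 fold change 0.23, adjusted p = 0.215). *Ifngr1*, the ligand-binding chain for gamma interferon, read 10.22 and 10.35 in *lal−/−* MDSCs, against 10.56 and 10.48 in *lal+/+* MDSCs (log2 fold change -0.24, adjusted p = 0.204). Whether the chains of a receptor differed from each other was not tested. The scaling of the arrays bore on this group: after a shift of the 4 arrays to a common median, *Ifnar2* reached 1.37 and *Ifngr2* 1.27, both called, and *Ifngr1* turned to 0.40.

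None of the 6 kinase and transcription factor genes was called, and their median log2 fold change was 0.27. *Jak1*, the kinase shared by both receptors, read 11.25 and 11.27 in *lal−/−* MDSCs, against 11.60 and 11.46 in *lal+/+* MDSCs (log2 fold change -0.27, adjusted p = 0.146, and 0.16 with a common median). *Tyk2*, the second kinase of the type I receptor, was at 0.34 on the log2 fold change scale (adjusted p = 0.087). The subunits of ISGF3, the factor that binds the ISRE after type I interferon, had positive log2 fold changes that did not pass the test. *Stat2* read 7.07 and 6.95 in *lal−/−* MDSCs, against 6.80 and 6.83 in *lal+/+* MDSCs (log2 fold change 0.20, adjusted p = 0.279). *Irf9*, its DNA-binding subunit, read 6.85 and 7.17 in *lal−/−* MDSCs, against 6.65 and 6.54 in *lal+/+* MDSCs (log2 fold change 0.41, adjusted p = 0.083). For both genes the *lal−/−* arrays lay above the *lal+/+* arrays without overlap.

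*Irf7*, a factor that amplifies type I interferon production, read 6.84 and 6.69 in *lal−/−* MDSCs, against 6.46 and 6.36 in *lal+/+* MDSCs (log2 fold change 0.36, adjusted p = 0.076). *Irf1*, an early target of gamma interferon, read 8.18 and 8.23 in *lal−/−* MDSCs, against 8.52 and 8.23 in *lal+/+* MDSCs, so that the genotypes overlapped (log2 fold change -0.17, adjusted p = 0.429, and 0.31 with a common median). A second, dimmer probe set of *Irf1* gave a log2 fold change of -0.47. *Socs1*, the feedback inhibitor of Janus kinases, was at 0.28 (adjusted p = 0.136).

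The sensors of foreign RNA and DNA, which interferon also induces, all had positive log2 fold changes, and 1 of 4 was called higher. Over all genes, 11899 of 19920 had a positive value and 7.57% were called higher. *Dhx58* encodes LGP2, a helicase that tunes RNA sensing, and it read 6.74 and 6.64 in *lal−/−* MDSCs, against 5.55 and 5.52 in *lal+/+* MDSCs. Its arrays agreed closely within each genotype and it was called higher in *lal−/−* MDSCs (log2 fold change 1.16, SE 0.12, adjusted p = 6.52e-04). Its *lal+/+* level lay inside the olfactory receptor range and its *lal−/−* mean under the percentile of *lal+/+* MDSCs, so no bound on the fold could be given. With the values as deposited its log2 fold change was 0.98, just under the fold threshold. *Ifih1*, the gene for the long double-stranded RNA sensor MDA5, reached an adjusted p of 0.039 at a log2 fold change of 0.49. *Ddx58*, the gene for the RNA sensor RIG-I, was at 0.10 (adjusted p = 0.588) and *Zbp1*, a sensor of Z-form nucleic acid, at 0.39 (adjusted p = 0.152). The *lal+/+* mean of *Zbp1* lay below the olfactory receptor percentile.

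Among the IFIT and related proteins, which bind foreign RNA and block its translation, 1 of 4 was called higher, beside 7.57% of all genes. *Ifit2* read 7.01 and 7.07 in *lal−/−* MDSCs, against 6.20 and 5.43 in *lal+/+* MDSCs. The *lal+/+* arrays lay apart from each other by more than the *lal−/−* arrays did, and below both of them. *Ifit2* rose in *lal−/−* MDSCs (log2 fold change 1.23, SE 0.24, adjusted p = 0.009), by at least 1.19-fold since its *lal+/+* level lay inside the olfactory receptor range, but without the second *lal+/+* array its log2 fold change was 0.88 and it was not called. *Ifit1*, a sensor of 5′-triphosphate RNA, read 6.22 and 5.74 in *lal−/−* MDSCs, against 5.56 and 5.59 in *lal+/+* MDSCs (log2 fold change 0.41, adjusted p = 0.130), all below the olfactory receptor percentile of its genotype. *Ifit3*, which stabilizes IFIT complexes, was at -0.20 (adjusted p = 0.301). *Ifi35*, an interferon-induced leucine zipper protein, was at 0.71 (adjusted p = 0.020).

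*Ifit1* and *Ifit2*, genes of 1 cluster, are shown by their promoters, since *Ifit2* was called and *Ifit1* was not. A promoter window held 250 bases before and 50 after the annotated start (RefSeq, GRCm38.p6), and capitals mark matches on either strand to the ISRE core (GAAA, any 2 bases, GAAA) or to the GAS core (TTCNNNGAA). The window of *Ifit1* held 2 ISRE matches, whose first bases lay at -104 and -85 from the start.
Ifit1 promoter window, chr19:34640639-34640938, plus strand: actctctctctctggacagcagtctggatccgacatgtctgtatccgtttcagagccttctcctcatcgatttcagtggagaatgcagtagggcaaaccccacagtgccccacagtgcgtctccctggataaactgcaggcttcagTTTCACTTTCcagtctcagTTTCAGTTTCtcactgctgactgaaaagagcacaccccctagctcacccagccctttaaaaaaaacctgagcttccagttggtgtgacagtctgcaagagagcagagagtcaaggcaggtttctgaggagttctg
The first of 2 windows of *Ifit2* held no ISRE match and 1 GAS match, at -241, and the other held neither.
Ifit2 promoter window, chr19:34550444-34550743, plus strand: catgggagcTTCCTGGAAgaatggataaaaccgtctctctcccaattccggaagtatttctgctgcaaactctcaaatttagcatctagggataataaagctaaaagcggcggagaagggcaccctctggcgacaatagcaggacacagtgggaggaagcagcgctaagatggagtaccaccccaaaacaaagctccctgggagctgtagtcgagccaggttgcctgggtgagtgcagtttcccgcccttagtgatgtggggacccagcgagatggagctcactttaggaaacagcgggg
No match says only that these letters are not in this window.

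*Isg15*, the ubiquitin-like modifier that gives the pathway its best known marker, was measured only on a probe set shared with the predicted gene *Gm9706*. That probe set read 6.63 and 7.18 in *lal−/−* MDSCs, against 7.72 and 8.07 in *lal+/+* MDSCs, with no overlap. Its log2 fold change was -0.99 (SE 0.24, adjusted p = 0.046 over all 35557 probe sets), a direction opposite to that of *Ifit2* and *Dhx58*. The *Isg15* window is printed because it held 3 overlapping ISRE matches, at -78, -72 and -66.
Isg15 promoter window, chr4:156200769-156201068, minus strand: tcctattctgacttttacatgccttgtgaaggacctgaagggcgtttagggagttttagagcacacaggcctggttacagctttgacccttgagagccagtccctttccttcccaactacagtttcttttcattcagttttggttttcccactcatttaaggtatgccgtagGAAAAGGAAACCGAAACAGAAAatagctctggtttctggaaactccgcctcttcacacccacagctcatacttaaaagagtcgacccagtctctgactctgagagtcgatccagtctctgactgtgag
*Usp18*, the protease that removes ISG15 from proteins, was at a log2 fold change of 0.12, and *Isg20*, an RNA exonuclease, at -0.09, and the genotypes overlapped for each. With the values as deposited *Usp18* stood at -0.10 and *Isg20* at 0.18.

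The Mx dynamin-like GTPases and the 2′-5′-oligoadenylate synthetases (OAS), which activate RNA decay by RNase L, held no called gene among 7, with a median log2 fold change of 0.04. *Mx1* read 4.50 and 4.66 in *lal−/−* MDSCs, against 4.45 and 4.24 in *lal+/+* MDSCs (log2 fold change 0.24, adjusted p = 0.253), and *Mx2* was at 0.04. The OAS genes went both ways. *Oas3* stood at a log2 fold change of 0.58 (adjusted p = 0.013) and *Oas2* at -0.53 (adjusted p = 0.029). *Oas1a* was at -0.26, *Oasl1* at -0.10 and *Oasl2* at 0.14, and for each of these the genotypes overlapped.

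None of the 6 other antiviral effectors was called. Their median log2 fold change was -0.55, and 5 of the 6 values were negative, beside 8021 of 19920 over all genes. At an adjusted p under 0.05 with no fold threshold 4 of the 6 passed, all with lower levels in *lal−/−* MDSCs, beside 9.84% lower over all genes. *Rtp4*, an interferon-induced chaperone of receptors, had the largest difference, reading 6.50 and 6.30 in *lal−/−* MDSCs, against 7.07 and 7.39 in *lal+/+* MDSCs (log2 fold change -0.83, SE 0.16, adjusted p = 0.008). The genotypes did not overlap, and *Rtp4* was called without the first *lal+/+* array, at -1.01. *Xaf1*, a proapoptotic partner of XIAP, was at -0.63 (adjusted p = 0.010), *Parp14*, an ADP-ribosyltransferase, at -0.59 (adjusted p = 0.045) and *Rsad2*, the gene for viperin, at -0.50 (adjusted p = 0.020). *Bst2*, the gene for tetherin, which holds budding virions at the cell surface, was at -0.45 (adjusted p = 0.080). *Parp9* was the exception at 0.12. The 30 antiviral effectors of a second list, read below, had a median log2 fold change of 0.11. At that adjusted p, 10 of the 30 passed with higher and 5 with lower levels in *lal−/−* MDSCs. Over all genes, 19.8% passed higher and 9.84% lower. *Cxcl10*, an interferon-induced chemokine for T cells, was at 0.23 (adjusted p = 0.330) and below the olfactory receptor percentile in both genotypes.

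**Figure D2:**
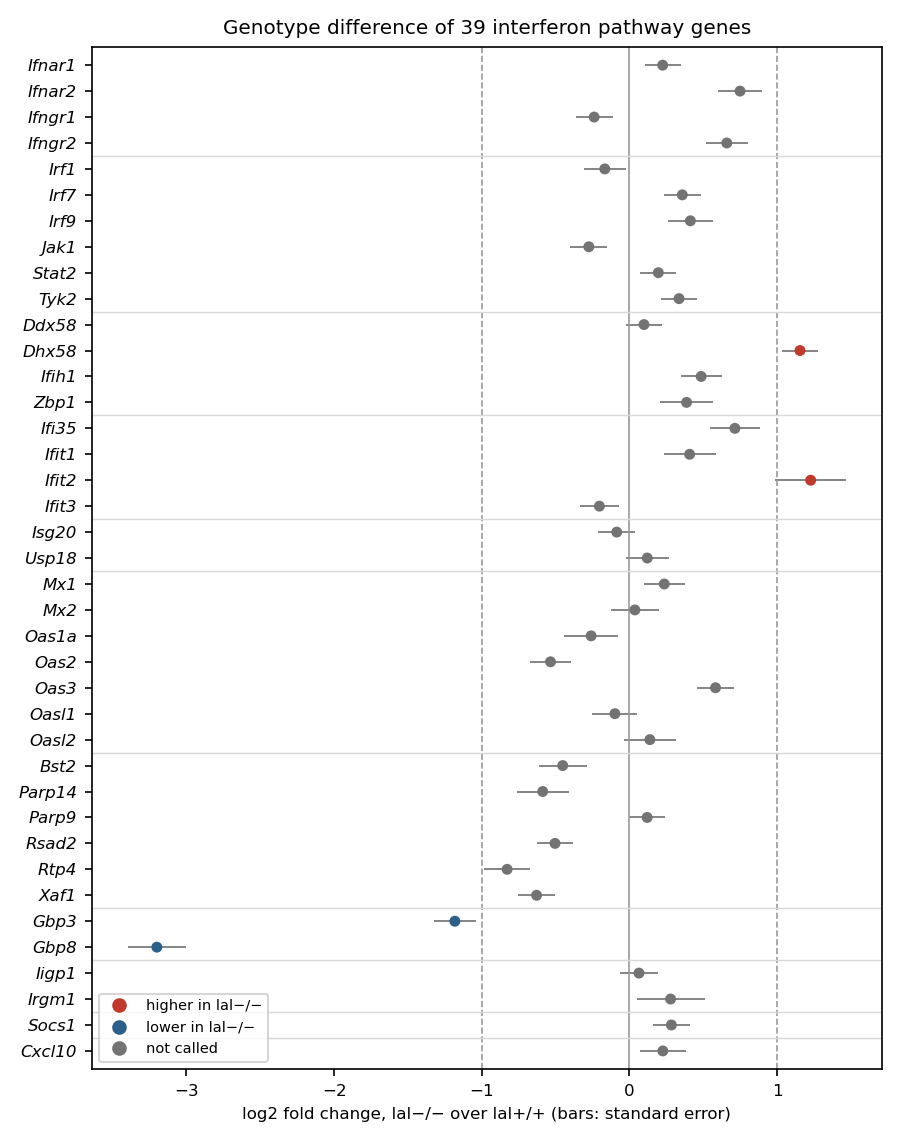
Log2 fold change of *lal−/−* over *lal+/+* MDSCs for the 39 genes, with bars for the standard error of the limma fit and dashed lines at a 2-fold difference. *Ifit2* (1.23) and *Dhx58* (1.16) lie right of the 2-fold line, *Gbp3* (-1.18) and *Gbp8* (-3.20) lie left of it, and the other 35 were not called.

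The largest difference among the 39 genes was that of *Gbp8*, a GBP GTPase. *Gbp8* read 6.44 and 6.93 in *lal−/−* MDSCs, against 9.73 and 10.05 in *lal+/+* MDSCs. The lowest *lal+/+* value was far above the highest *lal−/−* value, and the level fell 9.19-fold in *lal−/−* MDSCs (log2 fold change -3.20, SE 0.20, adjusted p = 1.07e-04). *Gbp3* read 5.38 and 5.59 in *lal−/−* MDSCs, against 6.77 and 6.56 in *lal+/+* MDSCs. It was called lower (log2 fold change -1.18, SE 0.14, adjusted p = 0.001), but all 4 values lay below the olfactory receptor percentile of their genotype, and no fold is given. These are both of the GBP genes of the list that had a probe set of their own. Without them, 37 genes remained, with a median log2 fold change of 0.14. Of the 37, 2 were called higher in the limma fit (5.41%, beside 7.57% over all genes). That none was called lower follows from leaving out the only 2 that were. At an adjusted p under 0.05 with no fold threshold, 7 of the 37 passed with a positive value and 5 with a negative value, beside 19.8% and 9.84% over all genes.

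*Gbp2* and *Gbp6* were read only on shared probe sets, as GBP genes lie side by side on 2 chromosomes and are much alike in sequence. The probe set shared by *Gbp2* and *Gbp2b* read 7.62 and 7.55 in *lal−/−* MDSCs, against 7.90 and 7.88 in *lal+/+* MDSCs (log2 fold change -0.30, adjusted p = 0.135 over all probe sets). The probe set that names *Gbp4*, *Gbp6*, *Gbp8*, *Gbp9*, *Gbp10* and *Gbp11* read 5.84 and 6.20 in *lal−/−* MDSCs, against 7.52 and 7.18 in *lal+/+* MDSCs. Again the genotypes did not overlap (log2 fold change -1.34, SE 0.20, adjusted p = 0.012 over all probe sets). How far RNA of 1 GBP gene reaches the probes of another was not tested.

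The GBP genes outside the 45 were then read as a family, a grouping chosen after their values were seen. *Gbp2b*, formerly named Gbp1, read 5.69 and 5.82 in *lal−/−* MDSCs, against 8.74 and 8.11 in *lal+/+* MDSCs. It fell at least 4.40-fold (log2 fold change -2.67, SE 0.21, adjusted p = 2.17e-04), with its *lal−/−* level inside the olfactory receptor range. *Gbp9* read 7.22 and 7.02 in *lal−/−* MDSCs, against 9.33 and 9.26 in *lal+/+* MDSCs, and fell 4.52-fold (log2 fold change -2.18, adjusted p = 1.01e-04). *Gbp4*, also inside that range in *lal−/−* MDSCs, fell at least 1.70-fold (log2 fold change -1.08, adjusted p = 0.013), and was not called without the first *lal+/+* array (-0.79) or without the first *lal−/−* array (-0.84). *Gbp5* (-0.67, adjusted p = 0.035) and *Gbp7* (-0.48, adjusted p = 0.028) stayed under the fold threshold, and *Gbp11* (-0.19, adjusted p = 0.499) lay in the olfactory receptor range. In all, 5 of 8 GBP genes with a probe set of their own were called lower (62.5%, beside the 3.23% lower over all genes) and none higher, with a median log2 fold change of -1.13. Of these 5, *Gbp8* and *Gbp9* read above the olfactory receptor percentile in both genotypes. On the same arrays the monocyte and macrophage markers had a median of -1.98 and the B cell markers one of -3.29, and their part in these results was not tested.

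**Figure D3:**
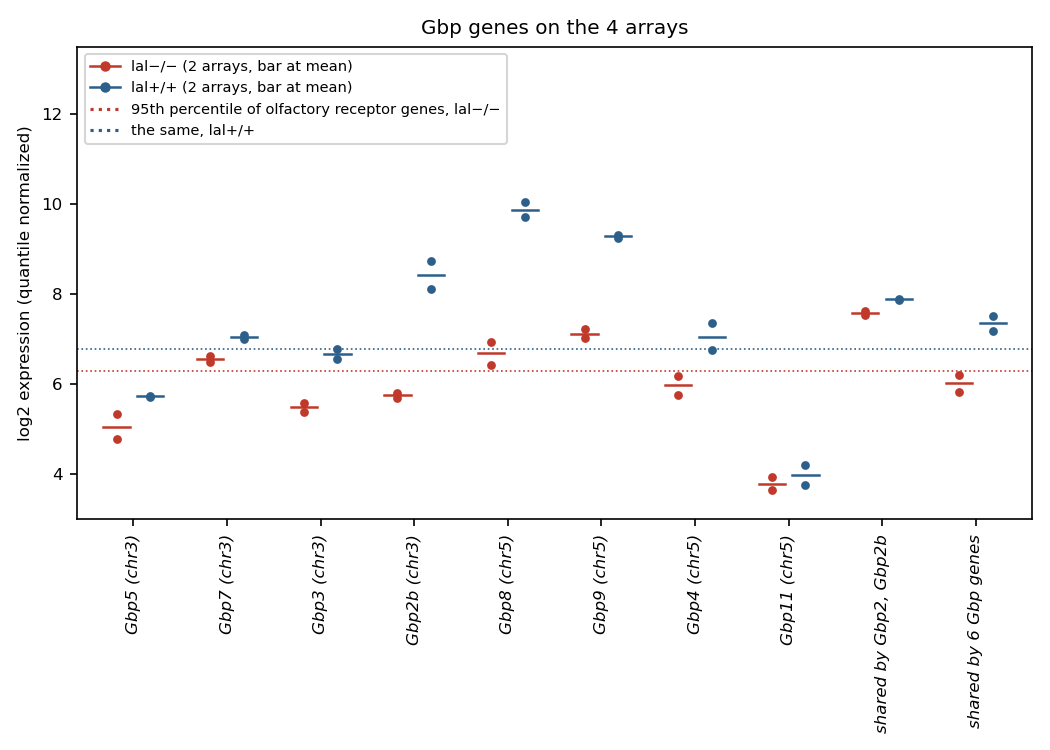
Log2 expression (quantile normalized) of the 8 GBP genes with a probe set of their own and of 2 shared probe sets on each array, *lal−/−* in red left of *lal+/+* in blue, with a short bar at each mean and dotted lines at the 95th percentile of olfactory receptor genes. The 2 *lal−/−* arrays sit below both *lal+/+* arrays everywhere except for *Gbp11*, and the gap ranges from -0.48 (*Gbp7*) to -3.20 (*Gbp8*) among the 7 that do not overlap.

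The promoters of *Gbp3* and of *Gbp2b*, the GBP gene with the largest difference among those with a promoter entry, are shown to set beside those of the IFIT genes. The first of 2 windows of *Gbp3* held 2 overlapping ISRE matches close to the start, at -45 and -39, and the other held none.
Gbp3 promoter window, chr3:142559794-142560093, plus strand: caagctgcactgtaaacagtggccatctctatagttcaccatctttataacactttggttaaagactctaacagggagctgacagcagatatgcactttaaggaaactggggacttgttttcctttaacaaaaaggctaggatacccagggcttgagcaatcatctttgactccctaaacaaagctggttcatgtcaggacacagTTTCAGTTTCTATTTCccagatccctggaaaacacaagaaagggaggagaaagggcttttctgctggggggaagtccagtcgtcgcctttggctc
The window of *Gbp2b* held 1 ISRE match, at -137.
Gbp2b promoter window, chr3:142594597-142594896, plus strand: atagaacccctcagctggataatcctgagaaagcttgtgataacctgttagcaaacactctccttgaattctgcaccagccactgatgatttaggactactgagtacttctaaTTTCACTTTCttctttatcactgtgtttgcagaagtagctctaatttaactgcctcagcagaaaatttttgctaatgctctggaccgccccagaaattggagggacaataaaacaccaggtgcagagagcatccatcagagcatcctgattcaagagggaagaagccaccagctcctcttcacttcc
Of 5 GBP genes with an entry, all 5 had an ISRE match in a window. Over all 32851 windows of that length, 3.44% held an ISRE match and 8.3% a GAS match. Of 39 windows of the 45 genes, 43.6% held an ISRE match (17 genes of 33 with an entry) and 25.6% a GAS match (10 genes). A GAS match overlapped an ISRE match in the *Bst2* window. The medians of genes with and without an ISRE match lay close together. *Gbp8* and *Dhx58*, both called, had no promoter entry and are in neither group. The same holds for *Rtp4*, *Parp14*, *Oas2*, *Parp9*, *Zbp1*, *Usp18*, *Mx1*, *Mx2* and *Iigp1*, none of them called. The 13 measured genes with a match had a median log2 fold change of 0.20, with none called higher and 1 lower. The 15 measured genes with an entry and no match had a median of 0.23, with 1 called higher and none lower. Over all genes, 7.57% were called higher and 3.23% lower. A match is a description of the letters and not a bound site.

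**Figure D4:**
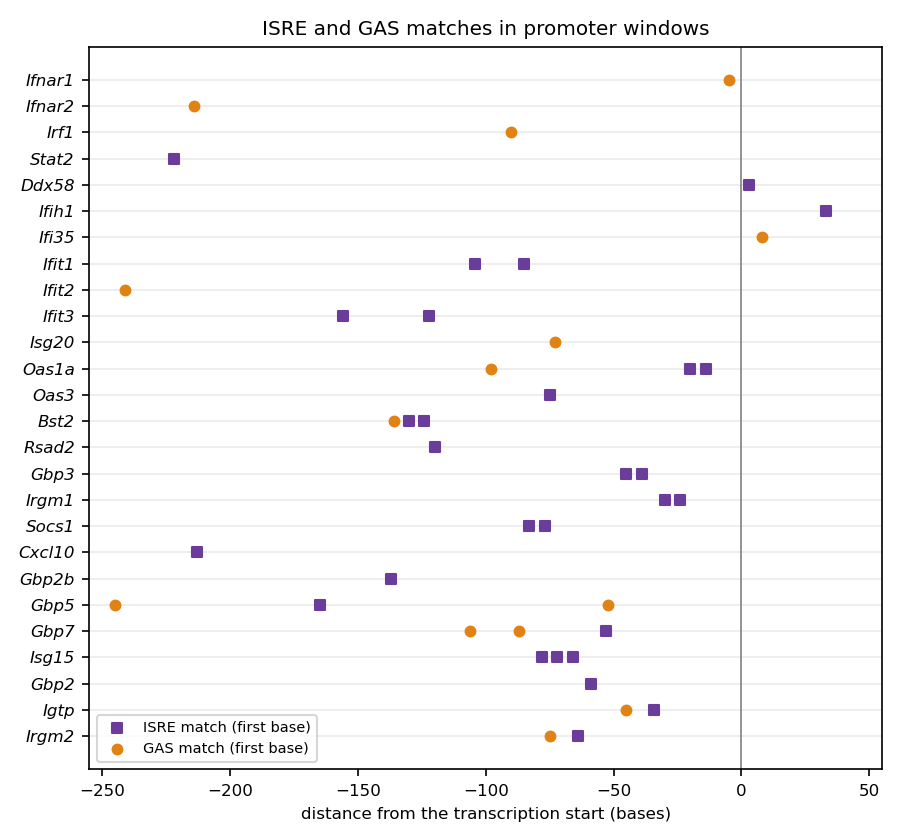
Position of ISRE (squares) and GAS (circles) matches, as the distance in bases of the first base of the match from the annotated start, for each gene with at least 1 match in its windows. Most ISRE matches lie before the start, with those of *Gbp3* at -45 and -39 and those of *Isg15* between -78 and -66.

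The immunity-related GTPases (IRGs), which act with GBPs on vacuoles of intracellular parasites, held no called gene. *Irgm1* was at a log2 fold change of 0.28 (adjusted p = 0.413) and *Iigp1* at 0.06 (adjusted p = 0.752), and the genotypes overlapped for each. *Irgm2* and *Igtp* shared a probe set that read 8.30 and 8.22 in *lal−/−* MDSCs, against 8.39 and 8.63 in *lal+/+* MDSCs, without overlap (log2 fold change -0.25, adjusted p = 0.270 over all probe sets). *Ifi44* had no probe set in the gene table used here.

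Other genes of the interferon pathway were read from a second list of 84 genes, of which 75 were measured. 2 were called higher and 11 lower in *lal−/−* MDSCs, 17.3% beside the 10.8% of all genes (14.7% lower, beside 3.23%), with a median log2 fold change of -0.07. As this list was chosen with earlier results of these data known, the shares describe it and are no test. *Tlr7*, the endosomal sensor of single-stranded RNA, read 7.33 and 7.80 in *lal−/−* MDSCs, against 6.66 and 6.26 in *lal+/+* MDSCs, inside the olfactory receptor range, and rose at least 1.71-fold (log2 fold change 1.11, adjusted p = 0.007). *Slfn2*, a Schlafen protein that guards leukocyte quiescence, read 11.68 and 11.77 in *lal−/−* MDSCs, against 10.79 and 10.58 in *lal+/+* MDSCs (log2 fold change 1.04, adjusted p = 0.002). Neither was called without the second *lal+/+* array, at 0.96 and 0.88, and *Tlr7* was also not called without the second *lal−/−* array, at 0.84.

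The lower genes of the second list held 3 GBP genes and 8 others. *Ly6e*, an interferon-induced surface protein that blocks coronavirus fusion, read 9.07 and 9.04 in *lal−/−* MDSCs, against 11.04 and 11.09 in *lal+/+* MDSCs (log2 fold change -2.01, adjusted p = 9.65e-05). *Ms4a4c*, a membrane protein of the MS4A family, read 6.99 and 7.03 in *lal−/−* MDSCs, against 8.57 and 8.53 in *lal+/+* MDSCs (log2 fold change -1.54, adjusted p = 2.1e-04). *Cd274*, the gene for the checkpoint ligand PD-L1, read 6.48 and 6.42 in *lal−/−* MDSCs, against 7.96 and 7.90 in *lal+/+* MDSCs (log2 fold change -1.48, adjusted p = 2.53e-04). For all of these the arrays of a genotype lay close together and the genotypes were far apart. *Nlrc5*, the transactivator of MHC class I genes, read 9.14 and 9.05 in *lal−/−* MDSCs, against 10.38 and 11.08 in *lal+/+* MDSCs (log2 fold change -1.63, adjusted p = 0.002), but its other probe sets ranged from -1.05 to 0.34 and the mean of them all gave -0.35, which was not called. The others called lower were *Gbp2b*, *Gbp9*, *Gbp4*, *Irf4* (-1.32), *Epsti1* (-1.08), *Sting1* (-1.06) and *Slfn5* (-1.01). Of these, *Irf4* (-0.998), *Epsti1* (-0.98) and *Sting1* (-0.76) were not called without the second *lal−/−* array, *Slfn5* (-0.92) was not called without the first *lal−/−* array, and *Sting1* (-0.89) and *Slfn5* (-0.71) were not called without the first *lal+/+* array. With a common median *Epsti1* (-0.67) and *Sting1* (-0.86) were not called either, nor was *Epsti1* as deposited (-0.85). *Irf4* lay in the olfactory receptor range in *lal−/−* MDSCs (at least 1.66-fold lower) and *Slfn5* in both genotypes. None of the 7 measured interferon ligand genes was called in the limma fit. With no fold threshold 1 passed at an adjusted p under 0.05, beside 29.6% of all genes. This was *Ifnl2*, lower in *lal−/−* MDSCs (log2 fold change -0.82, adjusted p = 0.019) and above the olfactory receptor percentile in both genotypes. 5 of the 7 lay in the olfactory receptor range in both genotypes, among them *Ifnb1* (log2 fold change 0.14) and *Ifng* (-0.09).

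**Figure D5:**
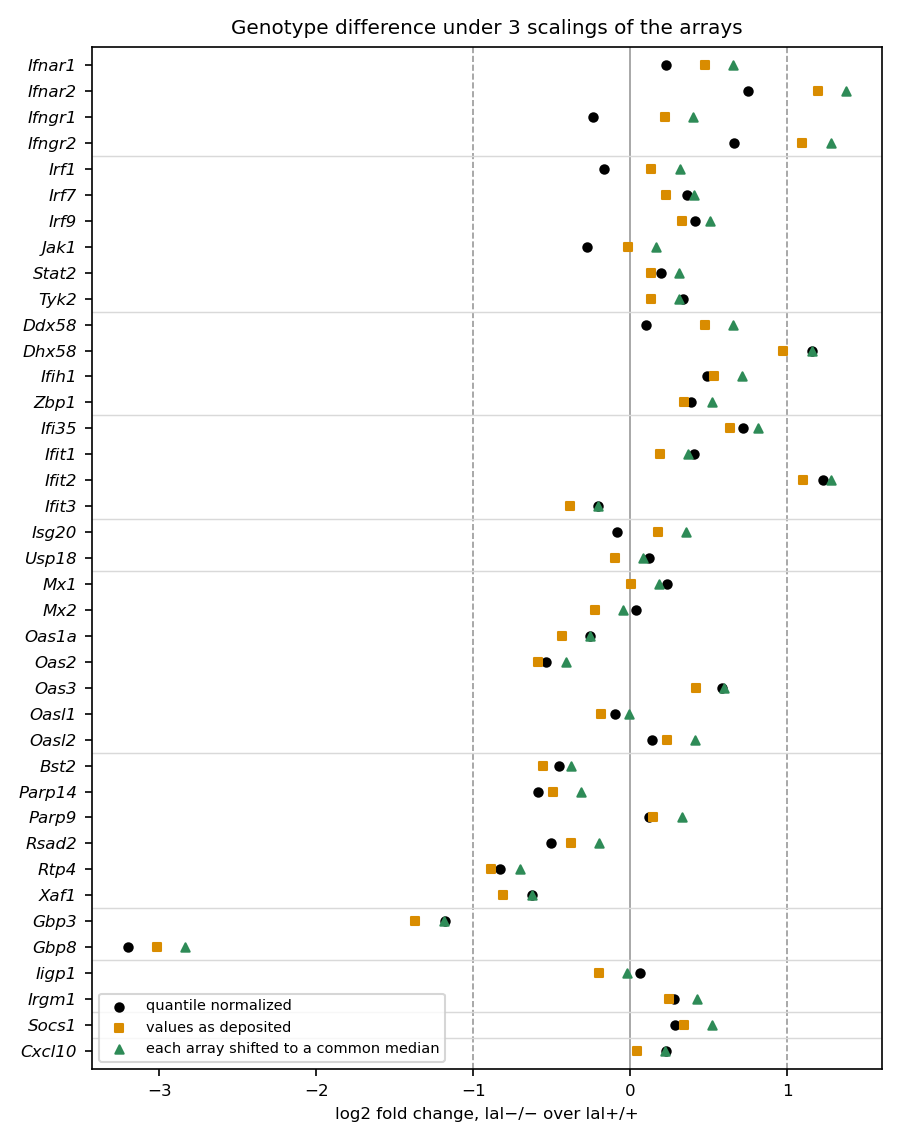
Log2 fold change of *lal−/−* over *lal+/+* MDSCs for the 39 genes with the arrays quantile normalized (circles), as deposited (squares) or shifted to a common median (triangles), with dashed lines at a 2-fold difference. *Gbp8* and *Gbp3* stay left of -1 under all 3 scalings, whereas *Ifnar2* and *Ifngr2* lie right of 1 under the last 2.

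The scaling of the arrays moved the receptor genes across the 2-fold line. *Ifnar2* was at 0.75 when quantile normalized, at 1.19 as deposited and at 1.37 with a common median, and *Ifngr2* was at 0.66, 1.10 and 1.27. In contrast, *Gbp8* and *Gbp3* were called under all 3. Over all genes, the share of calls that were higher in *lal−/−* MDSCs was 70.1% when quantile normalized, 76.1% as deposited and 84.9% with a common median.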

How the data were processed

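The 4 arrays (2 per genotype) were read as deposited log2 values of 35557 probe sets. The methods give normalization and summary by RMA in Partek Genomics Suite, whereas the labels name GCOS 1.1 as a tool. Whether the deposited values are the RMA values of the methods is not settled here. The labels give a NuGEN amplification and the methods an Affymetrix kit, and which was used is not settled here. Column medians were 6.15 and 6.15 (*lal−/−*) and 6.30 and 6.36 (*lal+/+*). As they differed by more than 0.1, the arrays were quantile normalized. The gene table listed 23410 probe sets, of which 21789 named 1 gene and were tested, and 1621 named several. Symbols were matched to RefSeq (GRCm38.p6).

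Genotype was fitted with limma 3.58.1 (R 4.3.3). Variances were moderated with 4.83 prior degrees of freedom beside 2 of the residuals, and Benjamini-Hochberg adjustment ran over these probe sets. The methods' tissue term could not be fitted to 1 tissue. Shared probe sets were adjusted over all 35557. Standard errors (SE) come from the moderated variances. With 2 arrays against 2 an exact permutation test cannot go below 0.333, so none was used. Probe sets are not independent replicates, and across them Pearson's r was 0.987 between *lal−/−* arrays, 0.984 between *lal+/+* arrays and 0.922 to 0.932 between genotypes. The number of arrays limits the precision, and the median absolute difference between arrays was 0.139 (*lal−/−*) and 0.190 (*lal+/+*) on the log2 scale.

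The genes and lists were chosen with earlier results of these data known. Values on every array are given for called genes of the 45, for 12 genes taken whatever their result, for up to 6 called genes per direction of the second list by size, for *Lipa*, and for *Jak1* and *Rtp4*, chosen after their values were seen. The alternatives were other scalings, a filter on dim probe sets, other tests, thresholds and blocks, the mean of a gene's probe sets, and each array left out. A crossed block was added after the data were seen. The procedure was tested on simulated data.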

Additional observations from a re-analysis of the deposited data

How the results depend on the processing

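Of the 39 genes, 4 were called in either direction. This count was 2 of 27 with probe sets below the median level (6.24) removed, 0 with an ordinary linear model and 14 with no fold threshold, and it ranged from 3 to 5 with 1 array left out. The ordinary model has 2 residual degrees of freedom and called no gene of the whole array, although 5688 had an unadjusted p under 0.05. Its adjusted p was 0.084 for *Gbp8* and 0.102 for *Gbp3*. The count of 2 higher became 4 with a common median, 1 with the dim filter, 0 with the ordinary model and 7 with no fold threshold, and it was 1 to 2 with 1 array left out, the 1 being without the second *lal+/+* array. The count of 2 lower became 1 with the dim filter, 0 with the ordinary model and 7 with no fold threshold, and it was 2 to 3 with 1 array left out. For the second list, the count of 2 higher became 10 with a common median, 6 as deposited, 0 with the ordinary model and 13 with no fold threshold, and ranged from 0 without the second *lal+/+* array to 5 without the first. Its count of 11 lower became 0 with the ordinary model and 23 with no fold threshold, and ranged from 8 to 11 with 1 array left out. The median of the 39 genes was 0.31 with a common median, and 0.07 to 0.16 with 1 array left out. The cause of these moves was not tested, apart from the lower number of degrees of freedom, genes or thresholds that the settings themselves bring.

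Some genes that were not called changed sign. With a common median, *Ifngr1* stood at 0.40, *Jak1* at 0.16, *Irf1* at 0.31, *Isg20* at 0.35, *Mx2* at -0.044 and *Iigp1* at -0.021. As deposited, *Ifngr1* stood at 0.22, *Irf1* at 0.13, *Usp18* at -0.10, *Isg20* at 0.18, *Mx2* at -0.22 and *Iigp1* at -0.20. Without 1 array, values ranged from -0.033 to 0.27 for *Usp18*, from -0.13 to 0.20 for *Mx2*, from -0.29 to 0.077 for *Oasl1*, from -0.10 to 0.40 for *Oasl2*, from -0.0084 to 0.54 for *Irgm1* and from -0.042 to 0.17 for *Iigp1*. The cause was not tested. The median over all genes was 0.08 when quantile normalized, 0.12 with a common median and -0.05 as deposited, and 1508 genes were higher and 644 lower, against 2619 and 465 with a common median, 2013 and 631 as deposited, and 3936 and 1961 with no fold threshold.

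The labels number the arrays of both genotypes, but same-numbered arrays deviated from their group means with a correlation of -0.16, so the numbers were not taken as pairs. With the replicate block 2 of the 39 genes were higher and 2 lower, and the second list held 2 higher and 11 lower, as without it. The crossed block gave the same counts, and neither block changed the call of any of 52 genes. A difference was hard to see for the 11 genes in the olfactory receptor range of both genotypes, where signal stands little above background.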

Other observations

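Further interferon pathway genes were read only on probe sets that name several genes, and are given here as values chosen after they were seen, with p adjusted over all 35557 probe sets. The 2 probe sets of the T cell-specific GTPase genes *Tgtp1* and *Tgtp2*, members of the IRG family, read 6.28 and 6.48, and 7.28 and 7.35, in *lal−/−* MDSCs. They read 7.35 and 7.29, and 8.25 and 8.14, in *lal+/+* MDSCs. Their log2 fold changes were -0.94 (adjusted p = 0.011) and -0.88 (adjusted p = 0.010), short of 2-fold, and neither pair of genotypes overlapped. *Ifi47*, another IRG gene, shares a probe set with the olfactory receptor gene *Olfr56* and stood at -0.74 (adjusted p = 0.029). The probe set of *Ifi204* and *Ifi211*, interferon-induced DNA-binding proteins of the p200 family, read 6.34 and 6.89 in *lal−/−* MDSCs, against 5.24 and 5.06 in *lal+/+* MDSCs, a log2 fold change of 1.46 (adjusted p = 0.013). The 3 probe sets that name groups of alpha interferon genes stood at -0.37, -0.14 and -0.59, with adjusted p of 0.104, 0.573 and 0.118.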
